A study of Mus musculus with 3 samples.

Results

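Aminoacyl-tRNA synthetases were examined in RNA-seq of MC3T3-E1 cells, an established preosteoblast line derived from mouse calvaria. The members were chosen by gene symbol, as the synthetase genes and the scaffold proteins Aimp1, Aimp2 and Eef1e1, with earlier results of these data known. Of the 15287 listed genes, 41 matched. They comprised 21 cytosolic enzymes, 17 mitochondrial enzymes and 3 scaffolds. The suffix 2 marks the mitochondrial enzymes, apart from Aimp2, which is a scaffold, and Tarsl2, which encodes a second cytosolic threonyl-tRNA synthetase. All cells were labelled wild type. The CTL cells had no treatment, the Ti cells received Ti particles (10 μg per square centimetre, 24 h) and the Ti+Se-Met cells received the particles with 5 μM selenomethionine (Se-Met) over the same 24 h. Each condition was 1 library of this 1 line, so differences could not be checked against replicates and no p-value is given.

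Each synthetase joins 1 amino acid to its tRNA, and the charged tRNA then enters the ribosome. Mammalian cells make separate enzymes for the cytosol and for the mitochondrial matrix, all from nuclear genes, whereas the glycine and lysine enzymes of both places come from shared genes, Gars and Kars. Several cytosolic enzymes are held with the scaffolds in the multi-synthetase complex, and the others act outside it. When uncharged tRNA builds up, the kinase GCN2 raises translation of the transcription factor ATF4, which is known to induce genes of amino acid supply, including many cytosolic synthetases. Methionyl-tRNA synthetase does not tell Se-Met from methionine, so Se-Met can enter proteins in its place.

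The values are FPKM, fragments scaled for transcript length and library size, as the authors deposited them. Where 3 values of a gene follow each other, they are in the order CTL, Ti and Ti+Se-Met. The log2 ratios below are differences in log2(FPKM + 1), and a gene was counted as past 1.5-fold or 2-fold on that scale. All 41 members passed the filter of 1 FPKM in at least 1 library, as did 11137 genes in all. Depth was estimated from the steps of low values as 14200000, 14750000 and 10450000 fragments in CTL, Ti and Ti+Se-Met. Members then rested on an estimated 46 to 12055 fragments, and the fold of a member's FPKM is given with a 95% exact conditional binomial interval. Such an interval holds counting error alone, at the deposited scaling, and sets library against library, not condition against condition. Of the 7 preosteoblast markers, Sp7 was below 1 FPKM in every library and Alpl was at 1.51, 0.2 and 0.2 FPKM. The other 5 were expressed in all libraries and were lower in Ti than in CTL, led by Postn at 2904.07, 419.52 and 446.61 FPKM and Col1a1 at 1333.19, 354.2 and 481.63 FPKM. Of 14 markers of macrophages, endothelium, adipocytes and epithelium, 7 were listed, none above 0.88 FPKM. The lower level of the preosteoblast markers went along with the synthetase differences described here, and its part in them was not tested.

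In untreated cells the cytosolic enzymes were expressed at far higher levels than the mitochondrial ones. The cytosolic genes ranged from 8.23 FPKM (Tarsl2) to 80.7 FPKM (Nars) in CTL, with a median of 37.67 FPKM. The mitochondrial genes ranged from 1.94 FPKM (Pars2) to 26.28 FPKM (Iars2), with a median of 7.12 FPKM. In 12 of 13 amino acids with 1 main enzyme in each place, the cytosolic enzyme had the higher level, by between 1.71 times for leucine and 39.4 times for asparagine. Isoleucine was the exception, with Iars2 at 26.28 FPKM and Iars at 20.98 FPKM in CTL. In both Ti-treated libraries the cytosolic Iars stood above Iars2, at 39.06 and 32.56 FPKM against 28.92 and 25.29 FPKM. The summed level of the 21 cytosolic genes was 799.46 FPKM in CTL, 1539.19 FPKM in Ti and 1310.24 FPKM in Ti+Se-Met, which made 0.178%, 0.293% and 0.255% of all listed FPKM. For the 17 mitochondrial genes the sums were 133.6, 172.1 and 147.76 FPKM, or 0.0298%, 0.0327% and 0.0287%.

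**Figure D1:**
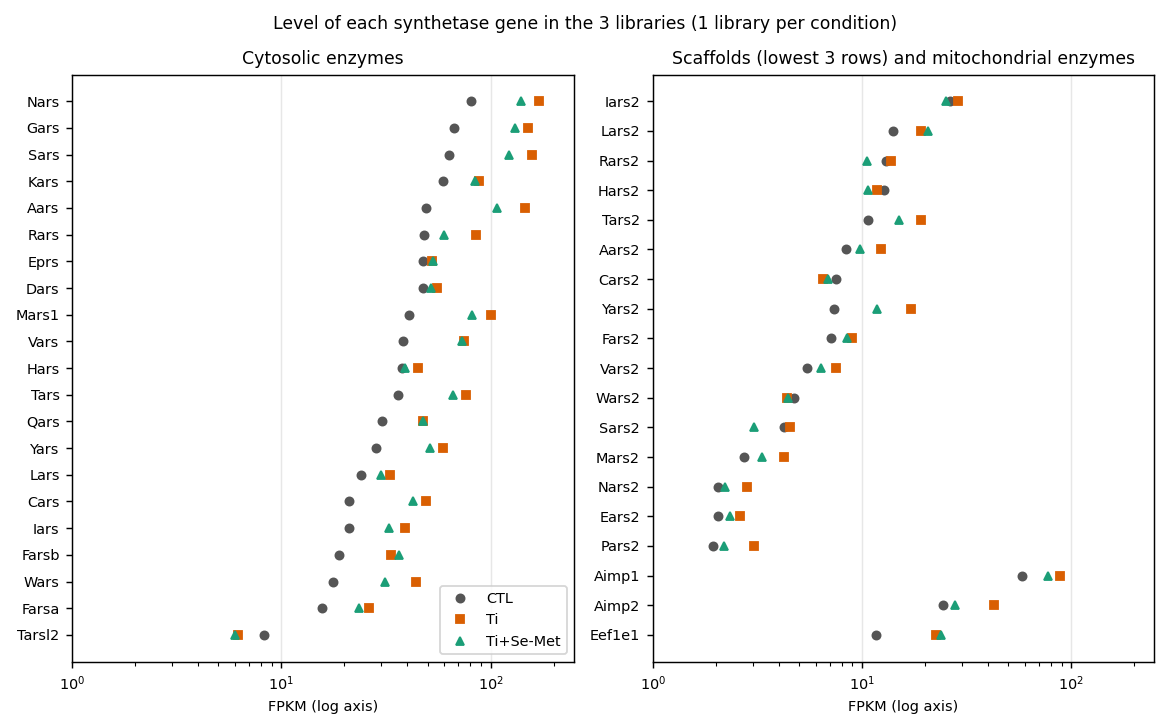
Level of each member shown in FPKM on a log axis, with 1 point per library (circle CTL, square Ti, triangle Ti+Se-Met) and genes ordered by their CTL level within each role. Among the cytosolic enzymes every gene but Tarsl2 lies to the right of its CTL point in both Ti-treated libraries as deposited (as TPM, Eprs and Dars do not in either, nor Hars in Ti+Se-Met), whereas the points of most mitochondrial enzymes lie close together.

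The first comparison asked how the synthetases differed in cells given Ti particles. The cytosolic enzymes were higher with Ti particles than in CTL, the median of their log2 ratios being 0.87 over 21 genes, against 0.08 over all 11137 genes. Of the 21 genes, 15 reached 1.5-fold and 9 reached 2-fold upward, where 15.5% and 3.63% of all genes did. As deposited, 0 reached 1.5-fold or 2-fold downward, where 11.3% and 3.64% of all genes did. Of all 41 members 37 were higher by any amount and 4 were lower, where 55.3% and 44.5% of all genes were. Rescaling to TPM, with each library brought to the same sum, moved the median of all genes from 0.08 to -0.14. The cytosolic median relative to it was 0.79 both as deposited and as TPM. A factor per library shifts all ratios alike apart from the 1 added to FPKM, so these values had to be nearly equal. The cytosolic genes higher in Ti numbered 20 as deposited and 18 as TPM, where Eprs (-0.08) and Dars (-0.0015) changed sign. As TPM, 12 of the 21 were past 1.5-fold upward and 1, Tarsl2, downward, where 916 and 2420 of all 11137 genes were.

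The enzymes outside the multi-synthetase complex showed the larger differences. The median of their log2 ratios was 1.07 in Ti against CTL over 13 genes. Of these, 11 were past 1.5-fold and 8 past 2-fold, all higher, where 15.5% and 3.63% of all genes were. Aars, the alanine enzyme, was at 48.85, 145.95 and 107.05 FPKM. Its fold in Ti against CTL, 2.99 (interval 2.88 to 3.10), was the highest of the 41 members. Sars, which charges serine, was at 62.95, 156.86 and 122.42 FPKM. Wars, the tryptophan enzyme, which interferon is also known to induce, was at 17.73, 43.78 and 31.31 FPKM. In both, the Ti library was the highest and CTL the lowest, with folds of 2.49 (interval 2.35 to 2.64) and 2.47 (interval 2.21 to 2.77) in Ti against CTL. Cars, the cysteine enzyme, was at 21.05, 49.22 and 42.59 FPKM. Gars, which serves cytosol and mitochondria, was at 66.98, 151.12 and 130.24 FPKM. These levels gave folds of 2.34 (interval 2.14 to 2.56) and 2.26 (interval 2.14 to 2.38). Nars, the asparagine enzyme and the most abundant member, went from 80.7 FPKM in CTL to 170.13 in Ti and 140.34 in Ti+Se-Met. Tars, the main threonine enzyme, was at 35.93, 76.42 and 66.45 FPKM. Yars, the tyrosine enzyme, was at 28.45, 58.97 and 51.13 FPKM. For Nars, Tars and Yars the folds in Ti against CTL lay between 2.07 and 2.13. Past 2-fold in Ti were thus Aars, Sars, Wars, Cars, Gars, Nars, Tars and Yars, together with Mars1 of the complex. As TPM, 4 cytosolic enzymes were past 2-fold, and with upper-quartile scaling 6. Of all 11137 genes, 233 and 242 were then that much higher.

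Smaller differences were seen in the other free enzymes. Vars, the valine enzyme, was at 38.25 FPKM in CTL and at similar levels of 74.51 and 72.73 FPKM in Ti and Ti+Se-Met. Phenylalanyl-tRNA synthetase is built from an α subunit, Farsa, and a β subunit, Farsb. Farsa was at 15.66, 26.12 and 23.51 FPKM and Farsb at 18.82, 33.51 and 36.42 FPKM, so that the α subunit was highest in Ti and the β subunit in Ti+Se-Met. The intervals of both folds in Ti+Se-Met against Ti included equal levels. Hars, the histidine enzyme, was at 37.67, 44.8 and 39.14 FPKM, and its fold of 1.19 in Ti against CTL (interval 1.09 to 1.29) was among the lowest of the cytosolic enzymes. Tarsl2 went the other way, at 8.23, 6.19 and 6 FPKM, with a fold of 0.752 (interval 0.64 to 0.882) in Ti against CTL. The pair of cytosolic threonine enzymes thus differed in opposite directions, Tars being higher and Tarsl2 lower in both Ti-treated libraries under every scaling.

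Promoter sequence was searched for TGATGNAA, letters shared by many composite sites of ATF4 and its C/EBP partners, on both strands. No other motif was searched. RefSeq promoters on GRCm38.p6, from 250 bases before to 50 bases after a start site, were matched by gene identifier for 31 of the 41 members. Those not matched included Cars, Hars, Hars2, Lars, Nars, Pars2, Rars, Vars and Wars. The letters were found in 5 of the 31 (16.1%), in 3.03% of the 11965 listed genes with a promoter and in 4.51% of all 27025 genes in the promoter table. All 5 were cytosolic, of 14 cytosolic enzymes searched, and 0 of 14 mitochondrial enzymes and 0 of 3 scaffolds held them. They were those of Aars, Gars, Tars, Yars and Iars. Sites of the last 4 are shown as examples of the letters in context. Each line gives up to 11 bases on either side of the site on the gene's strand, with the matching letters in capitals.
Gars: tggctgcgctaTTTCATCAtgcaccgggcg
Tars: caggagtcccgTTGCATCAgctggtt
Yars: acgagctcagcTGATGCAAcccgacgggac
Iars: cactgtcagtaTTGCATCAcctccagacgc

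The Gars sequence is chr6:55037960-55037989 on the plus strand, and the first base of its site is at -30, counted from 0 at the start site of the table. The Tars sequence is chr15:11399659-11399684 on the minus strand with the site at -15. In Yars (chr4:129189895-129189924, plus strand) and Iars (chr13:49682126-49682155, plus strand) the site is at 3 and 7. Of these 4, only in Yars do the letters read in the direction of the gene. The log2 ratios of the 5 genes in Ti against CTL ran from 0.87 to 1.56, with a median of 1.07, and those of the other 9 cytosolic enzymes searched from -0.36 to 1.30, with a median of 0.63. Mars1 (1.28) and Sars (1.30) held no match in this window. A match of letters does not show that a factor binds there.

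Members of the multi-synthetase complex differed less and less evenly. For the 8 enzymes and 3 scaffolds the log2 ratios of Ti against CTL had their median at 0.63. Of the 11, 7 were past 1.5-fold and 1 past 2-fold, all higher, where 15.5% and 3.63% of all genes were. As TPM, 3 of the 11 were past 1.5-fold, all higher, where 916 of all 11137 genes were. Mars1, which charges methionine and also Se-Met, was the one past 2-fold, at 40.78, 100.52 and 81.58 FPKM. Its fold was 2.46 (interval 2.33 to 2.61) in Ti against CTL and 0.812 (interval 0.771 to 0.854) when Ti+Se-Met was set against Ti. Mars1 thus had the highest ratio in the complex, and was lower with Se-Met than with Ti particles alone. Iars was at 20.98, 39.06 and 32.56 FPKM, with a fold of 1.86 (interval 1.74 to 1.99) in Ti against CTL. Rars, the arginine enzyme, was at 48.1, 84.86 and 60.18 FPKM, and its level in Ti+Se-Met was the closest to CTL among the members past 1.5-fold in Ti apart from Aimp2. Qars, the glutamine enzyme, was at 30.17, 47.34 and 47.46 FPKM, with nearly equal levels in both Ti-treated libraries. Kars was at 59.04, 88.25 and 84.23 FPKM, just below 1.5-fold in Ti, and Lars, the leucine enzyme, was at 24.04, 33.19 and 30 FPKM.

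At the low end of the complex were Eprs and Dars. Eprs encodes a fused enzyme for glutamate and proline and was at 47.57, 52.7 and 53.28 FPKM. Dars, the aspartate enzyme, was at 47.51, 55.69 and 51.62 FPKM. The intervals of their folds in Ti against CTL, 1.06 to 1.16 and 1.01 to 1.36, excluded equal levels as deposited, but the direction of both was lost as TPM. Aspartate and glutamate with proline were therefore the amino acids, beside histidine, whose cytosolic enzymes differed least from CTL in absolute log2 ratio.

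The scaffolds carry no catalytic site for tRNA charging. Aimp1, which also has a secreted cytokine form, was at 58.31, 88.49 and 77.54 FPKM. Aimp2 was at 24.51, 42.92 and 27.78 FPKM. Eef1e1, which links the complex to elongation factors, was at 11.7, 22.55 and 23.75 FPKM. All 3 were higher in Ti than in CTL under every scaling, with folds between 1.52 and 1.93, though 1 of them passed 1.5-fold as TPM. With Se-Met they parted, since Aimp2 was 0.647 of its Ti level (interval 0.558 to 0.75) and Eef1e1 was 1.05 of it (interval 0.945 to 1.17).

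**Figure D2:**
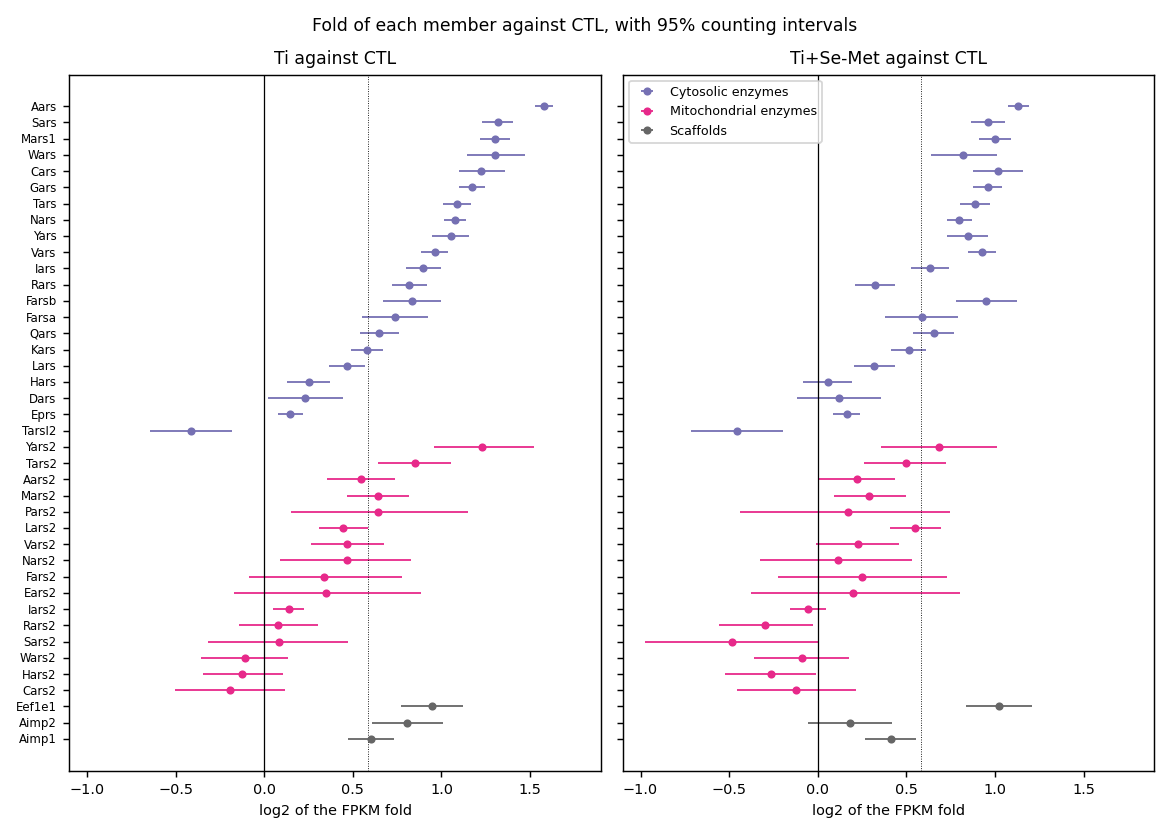
Log2 of the FPKM fold against CTL for each member shown in Ti (left) and Ti+Se-Met (right), where points are folds, bars are 95% counting intervals, the solid line marks equal levels and the dotted line 1.5-fold. In Ti all cytosolic intervals but that of Tarsl2 lie above equal levels as deposited (Eprs and Dars are lower than CTL as TPM), and 7 of the mitochondrial intervals include them.

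The mitochondrial enzymes differed less than the cytosolic ones. Their median log2 ratio in Ti against CTL was 0.33 over 17 genes, which was 0.54 below the cytosolic median. This gap was between 0.45 and 0.56 under all alternatives, but several of them could hardly move it. A factor per library changes it only through the value added to FPKM, and dropping the filter or leaving out Gars and Kars left it unchanged. With 1 added to FPKM, only Yars2 and Tars2 of the 17 were past 1.5-fold, both higher. This was a smaller share than the 15.5% of all genes that were higher by this much. With a pseudocount of 0.1 there were 5, among them Mars2 (0.62) and Pars2 (0.62), where 2039 of all 11137 genes were. Yars2, the mitochondrial tyrosine enzyme, was at 7.34, 17.22 and 11.79 FPKM, a fold of 2.35 (interval 1.94 to 2.87) in Ti. Tars2, for threonine, was at 10.69, 19.24 and 15.08 FPKM, a log2 ratio of 0.79 (interval of the fold 1.56 to 2.07). Both were highest in Ti and lowest in CTL, as most cytosolic enzymes were. As TPM or with a pseudocount of 5, Yars2 was short of 2-fold.

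For 10 of the 17 the interval of the fold in Ti against CTL lay above equal levels as deposited, and for 0 below. Among all genes with an interval, 42.3% and 31.3% did. Beside Yars2 and Tars2, those above included Aars2 (8.4, 12.28 and 9.79 FPKM), Iars2, Lars2, Mars2, Nars2, Pars2 and Vars2. Lars2, for leucine, was at 14.06, 19.14 and 20.6 FPKM, and was the only one of the 17 whose level in Ti+Se-Met was at least 1 FPKM above that in Ti. Iars2, the most abundant mitochondrial enzyme, was at 26.28, 28.92 and 25.29 FPKM, and its difference from CTL was small and of opposite sign in the Ti and Ti+Se-Met libraries, while as TPM it was lower in Ti as well (-0.09). Mars2, for methionine, was at 2.72, 4.24 and 3.33 FPKM, and Pars2, for proline, at 1.94, 3.03 and 2.18 FPKM. In both the Ti library was the highest. Vars2, for valine, was at 5.46, 7.55 and 6.39 FPKM and Nars2, for asparagine, at 2.05, 2.83 and 2.22 FPKM. Low genes such as Pars2, Nars2 and Ears2 rested on few fragments, and the interval of Pars2 reached from 1.11 to 2.22.

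For the remaining 7 the interval of the fold in Ti against CTL included equal levels as deposited. As TPM, 11 of the 17 mitochondrial enzymes were higher in Ti and 6 lower, against 14 and 3 as deposited. The intervals were not recomputed as TPM. Hars2, for histidine, was at 12.79, 11.74 and 10.65 FPKM and Rars2, for arginine, at 12.97, 13.69 and 10.57 FPKM. In both, Ti+Se-Met was the lowest library, with intervals against CTL of 0.697 to 0.994 and 0.679 to 0.981. Cars2, for cysteine, was at 7.48, 6.53 and 6.87 FPKM, Wars2, for tryptophan, at 4.72, 4.37 and 4.44 FPKM and Sars2, for serine, at 4.26, 4.51 and 3.05 FPKM. Fars2, the single-chain phenylalanine enzyme, was at 7.12, 8.99 and 8.48 FPKM and Ears2, for glutamate, at 2.05, 2.61 and 2.35 FPKM.

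The 13 amino acids with separate enzymes considered here allowed a comparison within each amino acid. In Ti against CTL the cytosolic log2 ratio exceeded the mitochondrial one for 12 of 13 amino acids, with a median excess of 0.73. The excess was largest for cysteine (1.36), where Cars was higher and Cars2 slightly lower, and for tryptophan (1.35) and serine (1.24). Alanine followed with 1.06. Leucine (0.03) and threonine (0.28) showed small excesses, and tyrosine (-0.10) showed none. For tyrosine both enzymes were about 2-fold higher. The quotient of the levels moved accordingly, and Sars was 14.8 times Sars2 in CTL, 34.8 times in Ti and 40.1 times in Ti+Se-Met. For methionine, Mars1 was 15.0 times Mars2 in CTL, 23.7 times in Ti and 24.5 times in Ti+Se-Met.

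**Figure D3:**
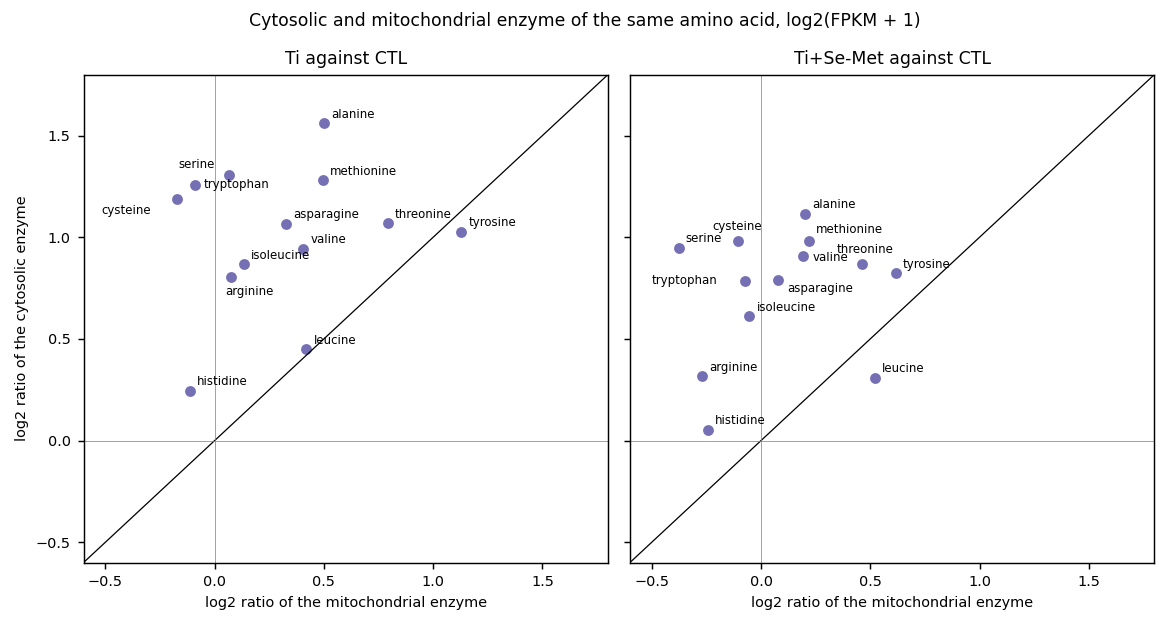
Log2 ratio of the cytosolic enzyme (y axis) against that of the mitochondrial enzyme (x axis) for 13 amino acids, in Ti against CTL (left) and Ti+Se-Met against CTL (right), with 1 point per amino acid and a line of equal ratios. In both panels 12 of the 13 points lie above the line, the exception being tyrosine on the left and leucine on the right.

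The second comparison asked how the synthetases stood in cells given both Ti particles and Se-Met. Against CTL, which also served the comparison above, the cytosolic median was 0.79 in Ti+Se-Met, and 13 of 21 genes reached 1.5-fold upward and 1 (Aars) 2-fold, where 10.4% and 2.64% of all genes did. The number past 2-fold was 3 with median-of-ratios scaling, 2 with a pseudocount of 0.1 and 0 as TPM. As deposited, 0 reached 1.5-fold or 2-fold downward, where 11.7% and 3.32% of all genes did. Of the 41 members, 34 were higher and 7 lower by any amount, where 51.0% and 48.8% of all genes were, and as TPM 27 and 14. Relative to all genes the cytosolic median was 0.77 as deposited and as TPM, which a factor per library cannot change apart from the 1 added to FPKM. The highest log2 ratios among the cytosolic enzymes were those of Aars (1.12), Cars (0.98), Mars1 (0.98), Gars (0.95) and Sars (0.95). For the free enzymes the median was 0.87 and for the complex 0.41, with 4 of its 11 members past 1.5-fold, and 2 as TPM, with upper-quartile scaling or with a pseudocount of 5. The mitochondrial median was 0.14, with Yars2 alone past 1.5-fold as deposited and none upward as TPM, with upper-quartile scaling or with a pseudocount of 5, and 6 intervals lay above and 2 below equal levels (35.5% and 32.5% of all genes). As TPM the mitochondrial median was -0.0016. The gap between the cytosolic and the mitochondrial median was 0.65 as deposited and 0.60 as TPM. Synthetases fall into classes I and II by the fold of their catalytic domain. The class I cytosolic enzymes had a median of 0.91 in Ti and 0.71 in Ti+Se-Met against CTL, and class II of 0.80 and 0.79, so that the order of the classes was not kept.

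Between Ti+Se-Met and Ti the differences were small. The median log2 ratio was -0.20 for the cytosolic and -0.21 for the mitochondrial enzymes, against -0.06 over all genes. Of the 41 members, 34 were lower in Ti+Se-Met, where 61.1% of all genes were, and 7 were higher, where 38.5% were. With median-of-ratios scaling, which brought the median of all genes to -0.0017, 32 of the 41 were lower, and with upper-quartile scaling 31. The interval of the fold lay below equal levels for 23 members and above for 0, where 28.1% and 15.0% of all genes did. Higher in Ti+Se-Met as deposited were Farsb, Eprs, Qars, Lars2, Cars2, Wars2 and Eef1e1, all with intervals that included equal levels. Aimp2 was the only member past 1.5-fold (-0.61), a size reached downward by 1.28% and upward by 0.844% of all genes, and 0 members reached 2-fold, where 0.0629% of all genes did downward and 0.162% upward. Aimp2 fell short of 1.5-fold when scaled by median of ratios or upper quartile. After it came Yars2 (-0.51), Rars (-0.49), Wars (-0.47), Aars (-0.44) and Sars2 (-0.44). The gap between cytosolic and mitochondrial medians was 0.01, and its sign depended on the setting.

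The lists of the surrounding pathway showed where the synthetases stood among genes of tRNA charging. The amino acid response list, which holds GCN2 (Eif2ak4), PERK (Eif2ak3), Atf4 and genes they are known to regulate, had medians of 0.89 (Ti) and 0.74 (Ti+Se-Met) against CTL. Of its 20 genes, 13 were at least 1.5-fold higher in Ti and none lower, where 15.5% and 11.3% of all genes were. In Ti+Se-Met 10 were higher and 1, Ddit4, was lower, where 10.4% and 11.7% of all genes were. As TPM, 10 were higher and 1 lower in both libraries. Of all 11137 genes, 916 were then higher and 2420 lower in Ti, and 715 and 2387 in Ti+Se-Met. Asns, asparagine synthetase, was at 26.9, 119.3 and 91.41 FPKM, and Trib3, an ATF4-induced pseudokinase, at 4.73, 31.28 and 17.15 FPKM. Atf4 itself was at 91.03, 219.82 and 207 FPKM, and Ddit3, which encodes CHOP, at 67.89, 156.75 and 131.88 FPKM. The enzymes of serine, glycine and folate metabolism were higher too, with Shmt2 at 38.51, 126.41 and 99.56 FPKM, Mthfd2 at 27.23, 54.41 and 58.57 FPKM, Phgdh at 95.13, 166.31 and 137.62 FPKM and Psat1 at 76.02, 123.73 and 106.08 FPKM. Past 2-fold in Ti were also Cebpb, Nupr1, Eif4ebp1 and Chac1, with log2 ratios of 1.85, 1.87, 1.68 and 1.44. Sesn2 was at 15.48, 24 and 16.37 FPKM, near CTL with Se-Met, and Ddit4 at 109.72, 96.87 and 71.55 FPKM. The upstream kinases did not share these differences, with Eif2ak4 at 6.46, 6.74 and 8.09 FPKM and Eif2ak3 at 13.36, 9.59 and 10.95 FPKM. The promoter letters searched above were found in 6 of 18 genes of the list with a promoter (33.3%), which were Asns, Trib3, Chac1, Nupr1, Slc7a11 and Vldlr. The cystine transporter gene Slc7a11 (21.21, 28.68 and 25.64 FPKM) did not reach 1.5-fold, and the lipoprotein receptor gene Vldlr (3.09, 2.25 and 2.77 FPKM) was lower than CTL in both libraries.

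**Figure D4:**
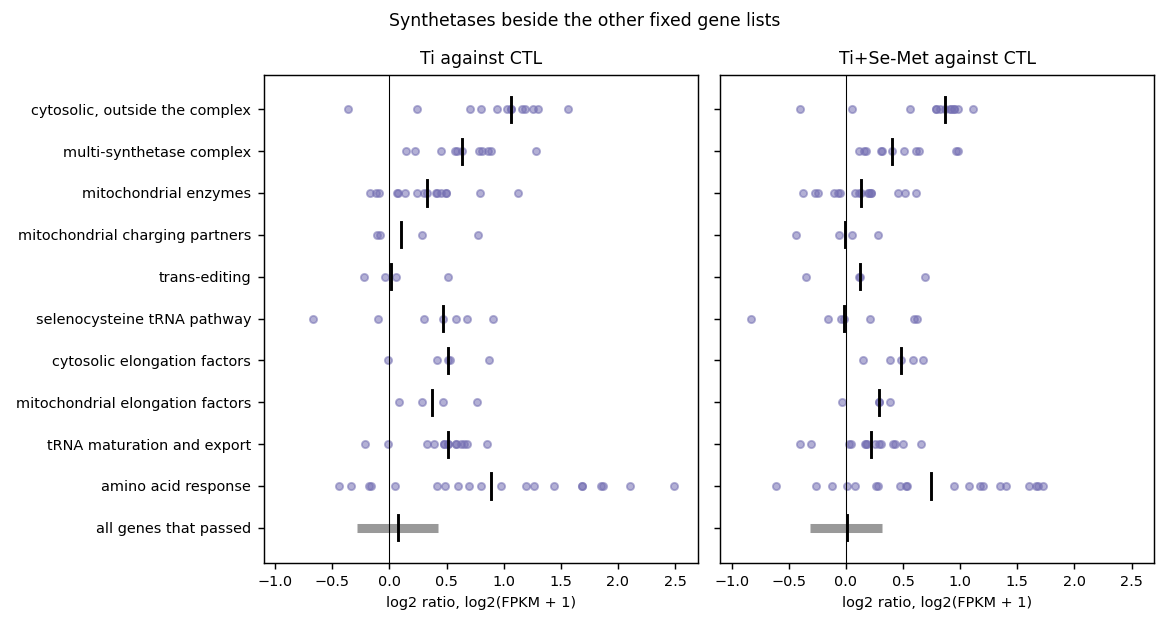
Log2 ratio against CTL for members and the other gene lists in Ti (left) and Ti+Se-Met (right), with 1 point per gene shown and a black bar at the median of the whole list, and for all genes that passed the filter a grey bar from the 25th to the 75th percentile. Of the lists drawn here, where the cytosolic enzymes appear only as those outside and those in the complex, the free cytosolic enzymes and the amino acid response list have the highest medians in both panels, 1.07 and 0.89 in Ti.

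Genes that mature and export tRNA were moderately higher in Ti, with a median log2 ratio of 0.51 over 14 genes. Of these, 5 were past 1.5-fold upward, where 15.5% of all genes were. The 5 became 1 as TPM or with upper-quartile scaling, 3 with median-of-ratios scaling and 2 with a pseudocount of 5. Of all 11137 genes, 916 were past it upward as TPM and 1115 with upper-quartile scaling. With median-of-ratios scaling 1517 were, and with a pseudocount of 5 1062 were. As TPM or with upper-quartile scaling the list thus held no more than the share of all genes. The 5 were Pop1 of RNase P (7.28, 13.96 and 9.24 FPKM), Hsd17b10 of mitochondrial RNase P (68.11, 109.98 and 92.21 FPKM), the splicing subunit Tsen54 (8.27, 13.59 and 13.65 FPKM), the export receptor Xpot (39.98, 62.24 and 49.02 FPKM) and the end nuclease Elac2 (11.33, 17.5 and 13.7 FPKM). In Ti+Se-Met the median of the list was 0.22 and only Tsen54 was past 1.5-fold, upward, where 10.4% of all genes were. Trnt1, which adds the CCA end that synthetases charge, was at 25.06, 24.84 and 18.78 FPKM.

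Of the factors that take up charged tRNA, Eef1a1, the cytosolic carrier, was at 4614.23, 4589.08 and 5133.22 FPKM. Its partner Eef1g was at 807.7, 1480.87 and 1293.77 FPKM and the translocase Eef2 at 1756.63, 2341.78 and 2644.34 FPKM, and they were the genes of this list of 5 past 1.5-fold, Eef1g in both libraries and Eef2 in Ti+Se-Met. Among 4 mitochondrial elongation factors, Tufm was past 1.5-fold in Ti, at 44.54, 76.32 and 54.51 FPKM. Mitochondria charge glutamine by amidating glutamate on its tRNA, and of the genes for this step Qrsl1 was at 4.1, 7.75 and 5.2 FPKM, past 1.5-fold in Ti, while Gatb and Gatc were not. Of the trans-editing factors, which free mischarged tRNA, Aarsd1 was at 21.91, 31.68 and 35.91 FPKM and past 1.5-fold in Ti+Se-Met. In the selenocysteine tRNA pathway, Sephs2, which makes selenophosphate, was at 7.51, 15 and 11.88 FPKM and Sepsecs, which makes selenocysteine on its tRNA, at 8.84, 5.18 and 4.55 FPKM, in opposite directions. Eefsec was at 8.61, 14.38 and 10.11 FPKM and Trnau1ap at 15.76, 24.1 and 24.83 FPKM, and the median of the 7 genes was 0.47 in Ti and -0.01 in Ti+Se-Met. As deposited, 15.5% of all genes were 1.5-fold or more higher and 11.3% lower in Ti, and 10.4% and 11.7% in Ti+Se-Met. As TPM, 916 of all 11137 genes were that much higher and 2420 lower in Ti, and 715 and 2387 in Ti+Se-Met. These 5 lists were not tested against such shares. The genes of these lists past 1.5-fold as TPM were Eef1g (0.64), Qrsl1 (0.63), Sephs2 (0.73) and Sepsecs (-0.93) in Ti, and Sepsecs (-1.07) and Mtfmt (-0.66) in Ti+Se-Met. Mtfmt, which formylates the mitochondrial initiator tRNA, was lower.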

How the data were processed

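Reads with adapters or of low quality were removed by the authors, and HISAT2 and HTSeq were used for alignment and counting. The authors deposited FPKM, rounded to 2 decimals, 1 column per library. How FPKM was derived, and any scaling between libraries, is not given in the sources used here. The submitters' processing notes list HISAT2, StringTie, SAMtools and the build mm9 without roles.

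Differences in log2(FPKM + 1) were taken over genes at or above 1 FPKM in 1 or more libraries (Python 3.11.15; numpy 2.4.6; scipy 1.17.1, with pandas 2.3.3 for tables). FPKM are not counts, and no test was run on 1 library per condition. Depth came from the spacing of low values, worth 1 fragment each, in 965 single-transcript genes of 350 to 1500 bases, using GENCODE M21 lengths matched by RefSeq accession, less 150 bases. Of these values, 58.9% to 62.3% lay within 0.1 fragment of a step, against 20.0% by chance, and settings that scored nearly as well gave 13300000 to 15100000 (CTL), 13900000 to 15600000 (Ti) and 10050000 to 11100000 fragments (Ti+Se-Met). Intervals used the shortest matched transcript of a gene, which is uncertain for Mars2 and Dars. The steps were tested on simulated data.

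The members and gene lists were chosen with earlier results of these data known. The values of 1 member, its pair and the promoter site of another member are not reported here, while counts and medians over members or roles include them and the comparison by amino acid leaves the pair out. The other members are named, as are genes of the other lists that reached 1.5-fold against CTL, with a few more chosen after their values were seen. Alternatives were other pseudocounts (0.1, 5), no filter or a mean of 5 FPKM, a 2-fold threshold, other scalings (TPM, median of ratios, upper quartile) and leaving out Gars and Kars.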

Additional observations from a re-analysis of the deposited data

How the results depend on the processing

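No paired analysis was possible because there was 1 library for every condition, and none could be left out. The cytosolic median in Ti against CTL, 0.87, became 0.76 with a pseudocount of 5, 0.65 as TPM and 0.73 with upper-quartile scaling, and in Ti+Se-Met against CTL 0.79 became 0.60 as TPM. The mitochondrial median in Ti+Se-Met against CTL, 0.14, changed sign as TPM (-0.0016). These shifts follow from the scaling factors and the pseudocount by construction. The cytosolic less the mitochondrial median in Ti+Se-Met against Ti, 0.01, was -0.0482 when 5 was added to FPKM and -0.0004 when a mean of 5 FPKM was required, so its sign is not fixed. Members past 1.5-fold numbered 20 (Ti against CTL), 15 (Ti+Se-Met against CTL) and 1 (Ti+Se-Met against Ti), and at 2-fold 10, 1 and 0. The last number was also 0 with a pseudocount of 5, with either median-of-ratios or upper-quartile scaling. The other 80 values computed for the lists stayed within the tolerance set for them (1.5 times for a count). For a median or a gap the tolerance was taken from the width of single-gene counting intervals, which is not the error of a median. Many of these values could hardly differ. Every member passed the filter, leaving out Gars and Kars left the medians unchanged, and a factor per library moves the gaps only through the pseudocount. Of the ratios of single members under the alternatives, 761 stayed within a tolerance taken from the member's own counting interval and 79 did not. Several members changed sign under another scaling, all with ratios short of 1.5-fold as deposited. Depth limits the mitochondrial enzymes most, of which Ears2, Fars2, Nars2, Pars2 and Sars2 rested on fewer than 100 fragments in at least 1 library.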
